A study of Homo sapiens with 9 samples.

Results

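The genes described here encode the proteins of the cytosolic ribosome. They were followed in 9 RNA sequencing libraries of Weri-RB1/CRP, which the labels give as a retinoblastoma cell line with resistance to carboplatin, a platinum drug that crosslinks DNA. All 9 libraries are labelled as that line, and marker levels that bear on this name are given below. The control libraries carried shNC, a short hairpin RNA that served as the control, and the others carried shSNHG1#1 or shSNHG1#2, hairpins aimed at the long noncoding RNA gene SNHG1, with 3 libraries in each group. No library is labelled as treated with carboplatin or as the parental line, and SNHG1 was not analysed here, so the groups follow the labels alone. Of 27407 features in the deposited table, 80 carried a symbol of the RPL or RPS name pattern, and 77 of these had a mean of at least 10 FPKM (a level per length of transcript and per mapped fragments of the library) over the 9 libraries. Those 77 genes, 47 of the large subunit and 30 of the small subunit, were chosen by name and level only, and no comparison between groups entered the choice.

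A ribosome is built from a small subunit, which holds the messenger RNA and reads its codons, and a large subunit, which joins the amino acids. Most ribosomal proteins are present in a single copy per ribosome, the stalk proteins of RPLP1 and RPLP2 being exceptions, so the many genes must supply their products in matched amounts, and they are among the most strongly transcribed genes of growing cells. Their messages begin with a C followed by a run of pyrimidines, the 5′ terminal oligopyrimidine tract, through which the growth kinase mTOR and the protein LARP1 set how much they are translated. Transcript levels, as measured here, do not show translation or the amount of ribosomes.

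Levels of these messages were high and covered a wide range from gene to gene. Mean levels over the 9 libraries ran from 12.9 to 1625 FPKM in the large subunit, with a median of 534, and the small subunit genes started at 108 FPKM, with a median of 515. In all, 74 of the 77 genes had a mean of at least 100 FPKM, and the same number stood among the 1000 most abundant features of the table. RPL13A, a large subunit protein, was the highest at 1670.4 ± 22.2 FPKM in shNC (SD, n = 3), ahead of RPL26, which lies beside the tunnel exit, RPL28, the stalk protein gene RPLP1 and RPL19. Among the highest of the small subunit were RPS2, RPS19, RPS27 and RPS6, the last of which encodes the substrate that gave the S6 kinases their name. RPS2 stood at 1486 ± 15.4 FPKM and RPS6 at 1382 ± 42.4 FPKM in shNC. RPS2 and RPS27 overlapped between their shNC libraries.

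At the low end, 3 large subunit genes lay far below the others. RPL39L, a paralog of the tunnel protein gene RPL39, had a mean of 12.9 FPKM, just above the minimum, which it passed only through the hairpin libraries, since its mean in shNC was 9.73 FPKM. RPL9 had 19.6 FPKM and RPL13 23.2 FPKM, although both encode proteins that every large subunit contains. The matching features that fell below the minimum were RPS28 at 3.17 FPKM and the paralogs RPL10L at 0.06 FPKM and RPL3L at 0.03 FPKM. Ribosomal protein genes have many near-identical processed copies in the genome, and reads that fit several copies can be split between them. RPSAP58, a copy of RPSA, was listed at a mean of 77.2 FPKM. RPL13AP5, a copy of RPL13A, was listed at 78.2, 28.2 and 0.0700 FPKM in the shNC libraries, a spread that the parent gene did not show. The copies were chosen after their values were seen, and the level of any single gene is uncertain to the extent that reads were shared.

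**Figure D1:**
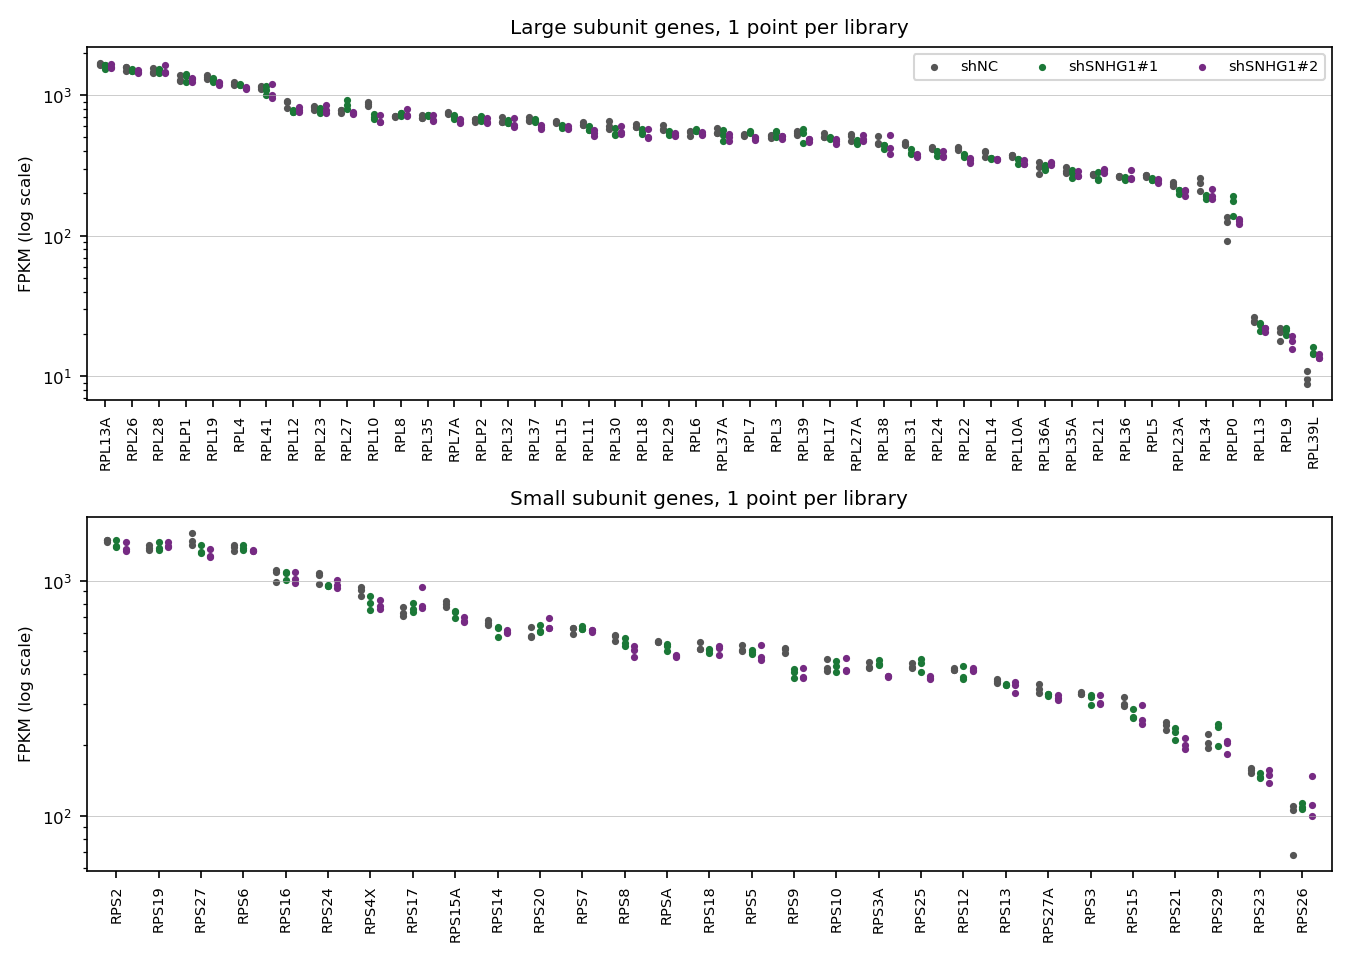
FPKM of large subunit genes (top) and small subunit genes (bottom) in each library on a log scale, with 1 point per library and colour for the group. All but 3 large subunit genes lie above 100 FPKM, and within most genes the 9 points lie close together beside the range between genes.

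Depth and composition bear on every comparison below. Each library summed to 21502093 to 21606498 estimated counts. In the ribosomal protein genes shSNHG1#2 replicate 1 was above the other libraries of its group, with 11.96% of all FPKM against 11.4% in both others, and values without it are given with the shSNHG1#2 results. A pair of features without a gene symbol took 7.06 to 7.64% of all counts in the shNC libraries, 13.3 to 14.8% with shSNHG1#1 and 12.8 to 13.2% with shSNHG1#2, so all other features together were left with a smaller share of the reads in the hairpin libraries. What those features are was not tested. Fold changes below come from counts scaled by TMM (trimmed mean of M values), and not from FPKM. The TMM factors were 0.971 to 0.979 in shNC and 0.999 to 1.027 in the hairpin libraries. Beside plain library totals they lower the hairpin values, so they do not make up for the reads taken by those features. Results with totals that leave those features out are therefore given as well. Of the 8 retinal markers in the table, CRX was at most 0.03 FPKM, RCVRN at most 0.09 FPKM, and ARR3, PDE6H, RXRG and NRL had means of at most 0.288 FPKM, while THRB had 2.07 and GNAT2 17.1 FPKM. Of the 7 epithelial markers, KRT8 was at 783 ± 2.49 FPKM in shNC, KRT18 made up most of the remaining sum, and EPCAM was at 1.69 ± 0.146 and MUC2 at 0.450 ± 0.0173 FPKM. The 7 epithelial markers summed to 1638 to 1639 FPKM in shNC, 1522 to 1615 with shSNHG1#1 and 1527 to 1618 with shSNHG1#2, and the retinal markers, mostly through GNAT2, to 20.4 to 22.02, 18.7 to 19.2 and 18.7 to 19.6 FPKM. The 7 immune markers, nearly all of whose sum was CD68, gave 271 to 289, 85.6 to 108 and 123 to 125 FPKM. Most retinal markers were thus nearly absent, and KRT8 and KRT18 were high, in cells labelled as a retinoblastoma line. These values go against that name, and which cells these are was not tested. The part of the marker shifts between groups in the ribosomal protein results was not tested.

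Large and small subunit messages stayed in nearly the same proportion in all 9 libraries. Summed FPKM of the large subunit genes was 29855, 28999.5 and 28365 in the shNC libraries, 28731, 27251 and 28065 with shSNHG1#1, and 28430.3, 26496 and 26426 with shSNHG1#2. For the small subunit the sums were 20705.5, 20078 and 19586 in shNC, 19718, 18988 and 19326 with shSNHG1#1, and 19809.5, 18595 and 18449 with shSNHG1#2. The groups overlapped in both sums. The ratio of large to small was 1.442, 1.444 and 1.448 in shNC, 1.457, 1.435 and 1.452 with shSNHG1#1, and 1.435, 1.425 and 1.432 with shSNHG1#2. The shSNHG1#1 ratios enclosed those of shNC, whereas the 3 shSNHG1#2 ratios all lay below the 3 shNC ratios, by about 1% between the means of 1.445 and 1.431. A ratio summed over chosen genes was given no test. Computed from the geometric mean level of the genes, the ratio was 0.824 to 0.847 in shNC and 0.819 to 0.830 with shSNHG1#2, and the groups overlapped. As a share of all FPKM, the 77 genes made up 11.6 to 12.2% in shNC, 11.6 to 11.9% with shSNHG1#1 and 11.4 to 11.96% with shSNHG1#2.

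**Figure D2:**
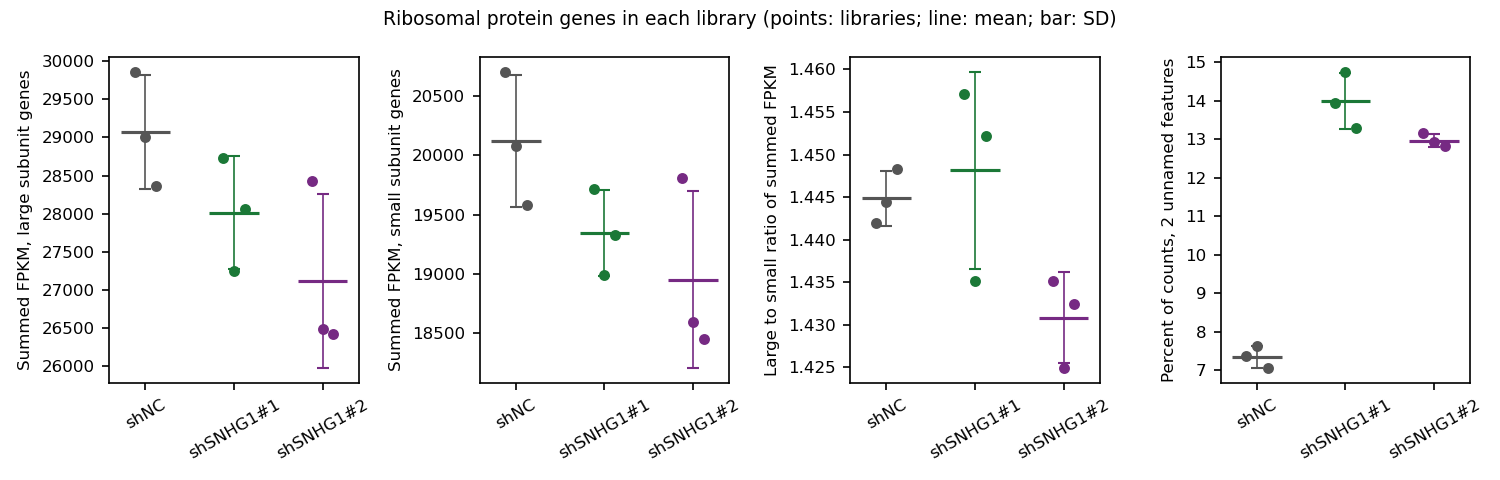
Summed FPKM of the large and small subunit genes, the ratio of the sums and the percent of counts taken by 2 features without a gene symbol, with 1 point per library, lines for group means and bars for SD; the axes do not start at 0. Sums overlap between groups, the shSNHG1#2 ratios of 1.425 to 1.435 lie below the shNC ratios of 1.442 to 1.448, and the unnamed features take more of the reads in all 6 hairpin libraries.

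With shSNHG1#1, ribosomal protein messages of both subunits were slightly lower than in shNC under TMM scaling, and almost none were higher. A gene was called changed when edgeR's quasi-likelihood test gave a Benjamini-Hochberg adjusted p below 0.05 over all 18767 features tested. Of the 77 genes 31 fell (40.3%) and 2 rose (2.60%), against a background of 23.5% of all features lower and 24.5% higher. In the fit without shSNHG1#2 replicate 1, a library of neither group, 48 fell, beside 4569 of all 19187 features. Among the 545 features with a mean of at least 100 FPKM, to which most of these genes belong, 46.4% fell and 25.3% rose. The share that fell is thus no larger than among other abundant features. The median log2 fold change was -0.11, with -0.11 for the large and -0.10 for the small subunit, beside 0.023 for all features and -0.098 for the abundant ones. What differs in description is the width, since the SD of the log2 fold changes was 0.14 for the ribosomal protein genes and 0.54 for the abundant features, and none of the 77 changed by more than 2-fold. The shNC and shSNHG1#1 libraries did not overlap in scaled counts for 41 genes that were lower and 2 that were higher, against 27.4% and 29% of all features. Of the 545 abundant features 277 were lower and 149 higher without overlap.

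The fall depended on what the reads were scaled to. When library totals without the 2 most abundant features replaced TMM, a setting added after the data were seen, the median of the 77 genes turned to 0.047, with 19 genes higher and 3 lower, while the median of all features moved from 0.023 to 0.18. Of all 18739 features tested under this setting, 7091 were higher and 2743 lower. Relative to the median of all features, the 77 genes lay lower by 0.13 under TMM, and by construction under this setting as well, since a change of scaling shifts all features alike. The 3 genes that fell under both scalings were RPL10, RPL31 and RPS9, and every other fall given below for 1 of the 77 genes with shSNHG1#1 is a fall relative to TMM scaling that was not called, or turned, under this setting.

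In the large subunit 20 of 47 genes fell with shSNHG1#1. RPL10, which completes the peptidyl transferase centre late in assembly, was listed at 899, 841 and 860.2 FPKM in shNC and 733, 678 and 698 FPKM with shSNHG1#1. The groups did not overlap, and RPL10 was 1.28-fold lower (log2 fold change -0.35, SE 0.05, edgeR adjusted p = 0.00012). RPL31, a protein at the exit of the peptide tunnel, stood at 445, 450.5 and 467 FPKM in shNC and at 414, 379 and 389 FPKM with shSNHG1#1. Again every control library lay above every hairpin library, with a log2 fold change of -0.29 (SE 0.03, edgeR adjusted p = 5.3e-05). RPL34 fell from 235 ± 24.8 to 190.1 ± 6.73 FPKM (log2 fold change -0.31, edgeR adjusted p = 0.00544). RPL12, a protein at the base of the stalk where elongation factors bind, fell from 871 ± 57.0 to 765 ± 14.3 FPKM (log2 fold change -0.23), and RPL23A, which binds signal recognition particle beside the tunnel exit, from 234 ± 6.68 to 208 ± 7.26 FPKM (log2 fold change -0.23). RPL18 fell by 0.19 on the log2 scale. RPL5 fell by 0.14 (edgeR adjusted p = 0.0066) and its partner RPL11 by 0.15 under TMM. Together these proteins carry the 5S ribosomal RNA and can bind MDM2, the ligase for p53. RPL11 lost its call without shNC replicate 1 (adjusted p = 0.0578), and RPL5 and RPL11 were at 0.014 and 0.0011 with totals that leave out the most abundant features.

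In the small subunit 11 of 30 genes fell with shSNHG1#1 and 0 rose. At an unadjusted p below 0.05, 17 were lower and 0 higher by edgeR, while DESeq2 called 18 lower and 0 higher and limma on log2 FPKM called 6 lower and 0 higher. In either direction 10083 of all 18767 features and 418 of the 545 abundant ones had an unadjusted p below 0.05. DESeq2 called 4468 lower and 4254 higher of 27294 features, and limma 3421 lower and 4212 higher of 13577. RPS9, a protein of the decoding region that joins early in assembly, was at 513, 494 and 519.9 FPKM in shNC and 422, 386 and 409 FPKM with shSNHG1#1. It showed the largest fall of the small subunit, 1.31-fold (log2 fold change -0.39, SE 0.05, edgeR adjusted p = 3.7e-05), and its groups did not overlap. RPS4X, encoded on the X chromosome, fell by 0.21 and RPS27 by 0.19 on the log2 scale. RPS15 fell by 0.22 (edgeR adjusted p = 0.0266), a call that ended when shNC replicate 1 was left out, or either replicate 2 or replicate 3 of shSNHG1#1 (adjusted p = 0.0863, 0.0631 and 0.0712). RPSA, which also serves as a laminin receptor at the cell surface, was at 552, 549 and 549 FPKM in shNC and 529, 504 and 538 FPKM with shSNHG1#1. These control values lay within 3 FPKM of each other and above all hairpin values, and RPSA fell by 0.12 on the log2 scale (edgeR adjusted p = 0.00264), but stood at 0.036 with totals that leave out the most abundant features.

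The genes that rose with shSNHG1#1 were both of the large subunit. RPL39L was listed at 10.8, 8.80 and 9.56 FPKM in shNC and 16.3, 14.4 and 14.8 FPKM with shSNHG1#1. Its log2 fold change was 0.59, but RPL39L is among the 77 genes only because the hairpin libraries lift its mean above 10 FPKM, so its rise is a description and adds nothing to the counts. RPLP0, the scaffold of the ribosomal stalk, was at 91.0, 124 and 135 FPKM in shNC and 177, 139 and 192 FPKM with shSNHG1#1. Replicates of RPLP0 spread widely in both groups, and its rise of 1.43-fold (log2 fold change 0.52, SE 0.14, edgeR adjusted p = 0.0115) was no longer called once shSNHG1#1 replicate 3 was left out (adjusted p = 0.0558). Its stalk partners gave log2 fold changes of -0.0022 for RPLP1 and 0.0029 for RPLP2, both not called under TMM. With totals that leave out the most abundant features both were called higher. RPLP2 was chosen after its values were seen.

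**Figure D3:**
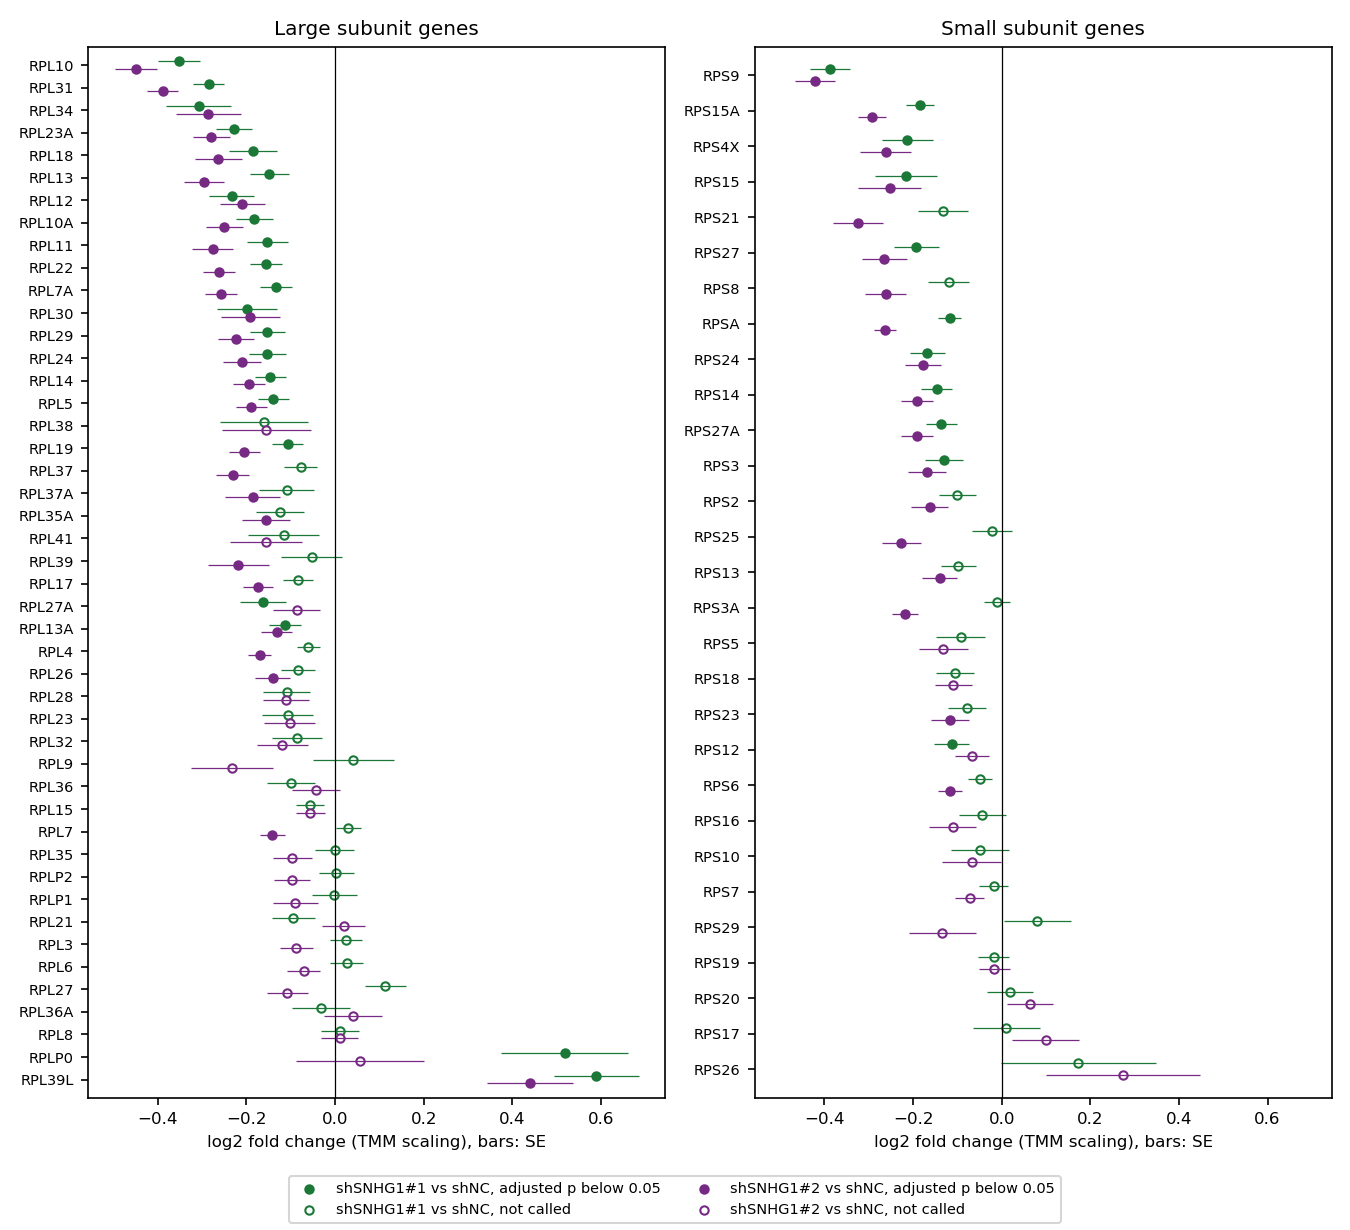
Log2 fold change of the genes reported here against shNC under TMM scaling for shSNHG1#1 (green) and shSNHG1#2 (purple), with bars for the SE, filled circles for an adjusted p below 0.05 and open circles otherwise; genes are ordered by the mean of both values. Nearly all called genes lie left of 0 under this scaling, RPL10, RPL31 and RPS9 farthest, and RPL39L lies right of 0 with both hairpins.

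With shSNHG1#2, 46 of the 77 genes fell against shNC under TMM scaling (59.7%), and the 1 that was called higher, RPL39L, passed the minimum level only through the hairpin libraries. Without shSNHG1#2 replicate 1 the number that fell was 60, beside 3997 of all 19187 features, with a median log2 fold change of -0.21 for the 77 genes. The background was 22.8% of all features lower and 23.3% higher, and among the 545 abundant features 53.8% were lower and 22.2% higher. The median log2 fold change was -0.16, with -0.17 for the large and -0.16 for the small subunit, beside 0.011 for all features and -0.14 for the abundant ones. With totals that leave out the most abundant features the median was -0.0070, with 9 genes higher and 11 lower, while all features moved to 0.17. Of all 18739 features tested under these totals, 6912 were higher and 2469 lower. Relative to all features the 77 genes were lower by 0.17. The 11 that stayed lower were RPL10, RPL11, RPL13, RPL23A, RPL31, RPS9, RPS15A, RPS21, RPSA and, named only for this count, RPL22 and RPL7A. The shNC and shSNHG1#2 libraries did not overlap for 45 genes that were lower and 1 that was higher, against 27.4% and 28.3% of all features. Of the 545 abundant features 294 were lower and 136 higher without overlap. By subunit, 27 of 47 large and 19 of 30 small subunit genes fell. No small subunit gene rose by edgeR, also at an unadjusted p below 0.05, and DESeq2 and limma called 0 higher as well. Both comparisons use the same shNC libraries, so they are not independent of each other.

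RPL10 stood at 718, 648 and 642 FPKM with shSNHG1#2, below all 3 shNC libraries, and fell 1.37-fold (log2 fold change -0.45, SE 0.05, edgeR adjusted p = 2.3e-05). This was the largest fall against shNC among the 77 genes. RPL31 was at 382, 369 and 365 FPKM and fell 1.31-fold (log2 fold change -0.39, edgeR adjusted p = 6.1e-06), again with no overlap. RPL34 fell by 0.29 and RPL23A by 0.28 on the log2 scale. RPL13, among the lowest of these genes, fell from 25.2 ± 1.18 to 21.6 ± 0.886 FPKM (log2 fold change -0.30, edgeR adjusted p = 0.00028). RPL11 fell by 0.28 and RPL18 by 0.26. RPL39L was at 14.5, 13.5 and 13.5 FPKM (log2 fold change 0.44), with the same limit as above. RPLP0, at 122, 127 and 132 FPKM, lay inside the shNC range (log2 fold change 0.056, edgeR adjusted p = 0.788).

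Small subunit genes with shSNHG1#2 were led by RPS9 again, at 424, 391 and 384 FPKM, which is 1.34-fold below shNC (log2 fold change -0.42, edgeR adjusted p = 2.3e-05). RPS21, a small protein of the solvent side, was at 244, 231 and 249.7 FPKM in shNC and 215, 200.2 and 193 FPKM with shSNHG1#2. Its groups did not overlap and it fell by 0.32 on the log2 scale (edgeR adjusted p = 0.00074). RPS15A was at 819.7, 774 and 799 FPKM in shNC and 675, 699.6 and 670.1 FPKM with shSNHG1#2, a fall of 0.29 on the log2 scale (SE 0.03, edgeR adjusted p = 2.3e-05). The groups were clearly apart, with the lowest control above the highest hairpin library. RPSA, at 479, 484 and 475 FPKM, fell by 0.26 (edgeR adjusted p = 9.8e-06), and RPS27 and RPS4X both by 0.26. RPS6 fell by only 0.12 under TMM and stood at 0.038 with totals that leave out the most abundant features.

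**Figure D4:**
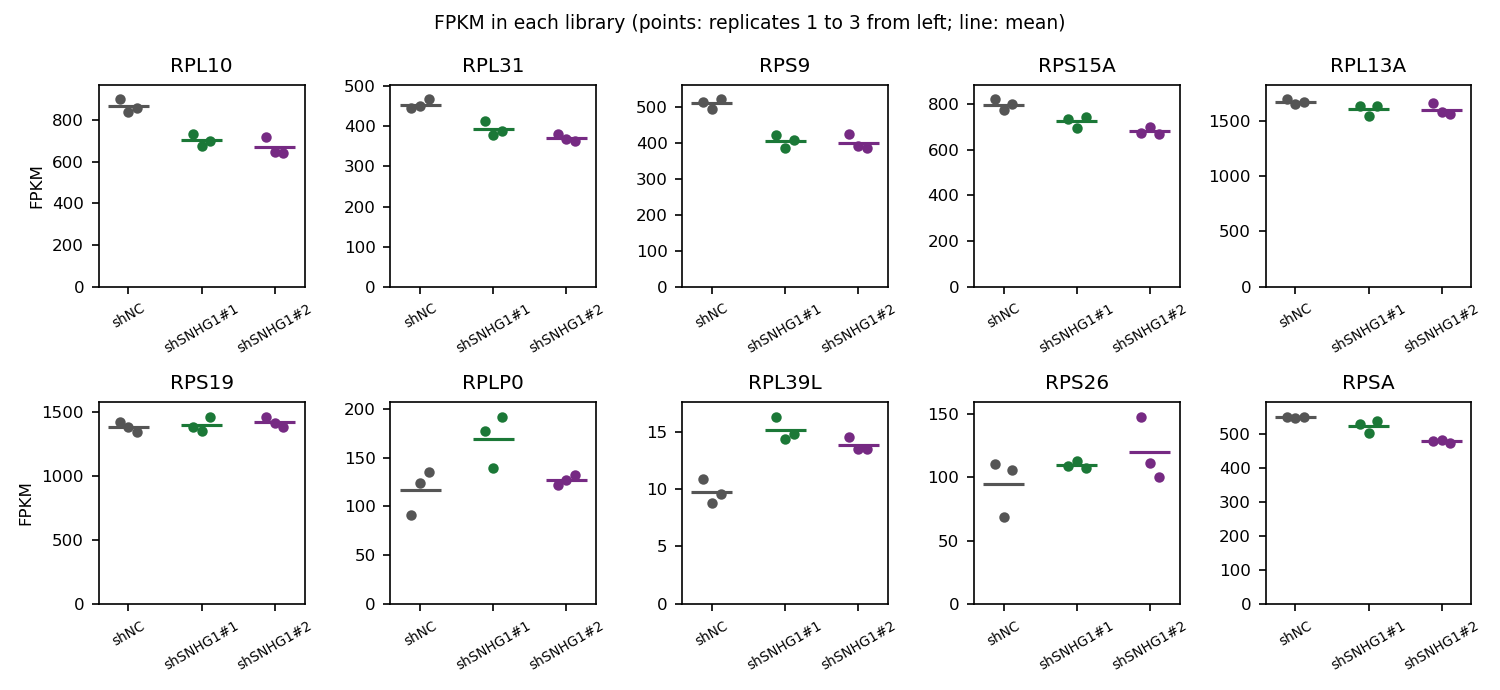
FPKM of 10 genes in each library, with 1 point per library, a line for the group mean and axes from 0. RPL10, RPL31, RPS9 and RPS15A are lower in all 6 hairpin libraries than in shNC, RPL39L is higher in all 6, RPLP0 is high in shSNHG1#1 replicates 1 and 3, and RPS19 and RPS26 overlap between groups.

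Side by side, 29 genes, 19 large and 10 small, fell with both hairpins, 17 fell with shSNHG1#2 alone past the threshold, 2 with shSNHG1#1 alone and 27 were called with neither. No gene was called in opposite directions. Joint calls over all features or over the abundant ones are not given here, and both comparisons use the same shNC libraries. These counts therefore do not show whether such overlap is particular to ribosomal protein genes. Taken singly, 23.5% of all features fell with shSNHG1#1 and 22.8% with shSNHG1#2. Among the abundant features these shares were 46.4% and 53.8%. RPS19, which is needed to mature the small subunit, was called with neither hairpin under TMM. With totals that leave out the 2 most abundant features RPS19 was called higher with both. It was listed at 1425, 1384 and 1346 FPKM in shNC, 1384, 1352 and 1462 FPKM with shSNHG1#1 and 1463, 1411 and 1386 FPKM with shSNHG1#2. The 3 groups overlapped, and its log2 fold changes were -0.018 (SE 0.04) and -0.017 (SE 0.04). RPS26, which lines the channel where messenger RNA leaves, varied widely between libraries, at 110.5, 68.4 and 106 FPKM in shNC and 148, 112 and 100.2 FPKM with shSNHG1#2. With shSNHG1#1 it was at 109, 113 and 107 FPKM. Its log2 fold changes of 0.17 and 0.27 each had an SE of 0.17 and were not called. RPS26 was chosen for this spread after its values were seen. RPL28 and RPLP1, among the 5 highest of the large subunit, were also called with neither hairpin under TMM. Their log2 fold changes were -0.11 and -0.0022 with shSNHG1#1 and -0.11 and -0.090 with shSNHG1#2. With totals that leave out the most abundant features RPLP1 was called higher with shSNHG1#1.

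**Figure D5:**
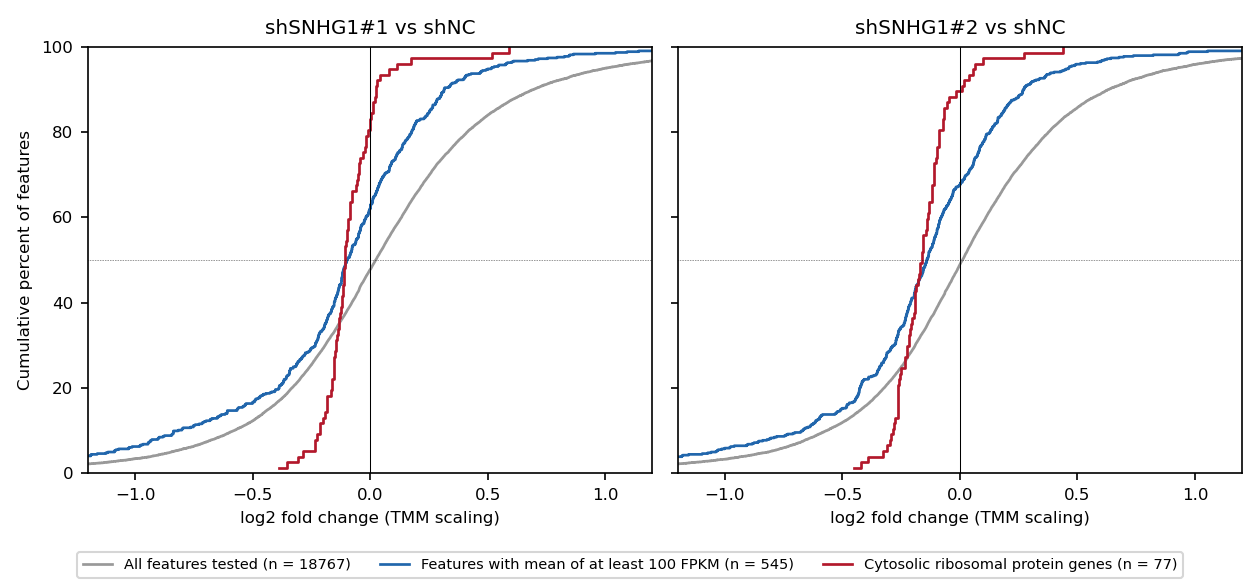
Cumulative percent of features by log2 fold change against shNC under TMM scaling, for all 18767 features tested, the 545 with a mean of at least 100 FPKM and the 77 ribosomal protein genes, which are part of both larger sets. The red curve of the ribosomal protein genes is the steepest, with an SD of 0.14 in both panels, and crosses 50% at about the same value as the abundant features.

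Between the hairpins themselves few ribosomal protein genes were called. Of the 77 genes 6 were lower with shSNHG1#2 than with shSNHG1#1 (7.79%; RPL27, RPL7, RPL4, RPS3A, RPS25 and RPSA), against 1.12% of all features lower and 2% higher, and 0 were higher by edgeR. Among the 545 abundant features 10.1% were lower and 8.99% higher by edgeR. At an unadjusted p below 0.05, 25 of the 77 genes were lower and 1 higher. In either direction 2951 of all 18767 features and 258 of the 545 abundant ones passed that limit. DESeq2 called 12 of the 77 genes lower and 0 higher, beside 354 lower and 611 higher of 27294 features. By limma 3 were lower and 0 higher, beside 107 lower and 364 higher of 13577 features. The median log2 fold change was -0.057, with -0.077 for the large and -0.043 for the small subunit, beside -0.0018 for all features and -0.043 for the abundant ones. That median is about the replicate SD of 0.053, and it was -0.098, -0.033 and -0.027 without shSNHG1#2 replicates 1, 2 and 3 in turn. RPS3A was at 442, 437 and 462 FPKM with shSNHG1#1 and 392, 394 and 389 FPKM with shSNHG1#2. Its groups did not overlap, its log2 difference was -0.21 (SE 0.03, edgeR adjusted p = 0.00308), and it was the only one of the 6 whose call held whichever library was left out. RPL27 was at 924, 798 and 853 FPKM with shSNHG1#1 and 739.9, 745 and 754 FPKM with shSNHG1#2 (log2 difference -0.22, edgeR adjusted p = 0.0271). RPL27 lost its call without shSNHG1#1 replicate 3 or without any 1 of the shSNHG1#2 replicates (adjusted p up to 0.105). RPL7, which differed by -0.17, lost it without shSNHG1#1 replicate 3 or shSNHG1#2 replicate 2 (adjusted p up to 0.0681), and RPSA, at -0.14, without either of these or shSNHG1#2 replicate 3 (adjusted p up to 0.0802). RPL4 and RPS25 lost theirs in 7 and 6 of the 9 fits that each left out 1 library (adjusted p up to 0.233 and 0.151). The count of 6 fell to 1 without shSNHG1#1 replicate 3, to 1 without shSNHG1#2 replicate 2 and to 2 without shSNHG1#2 replicate 3. In those fits 92 of 19173, 57 of 19156 and 76 of 19169 features were lower.

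Ribosomal proteins whose symbols fall outside the RPL and RPS pattern were looked at next. RACK1, a scaffold protein on the head of the small subunit, was at 777, 761 and 750.4 FPKM in shNC, 676, 659.8 and 664 FPKM with shSNHG1#1 and 661, 613 and 597 FPKM with shSNHG1#2. Its control libraries lay above all 6 hairpin libraries, with log2 fold changes of -0.24 (edgeR adjusted p = 0.00048) and -0.35 (edgeR adjusted p = 3.2e-05). With totals that leave out the most abundant features RACK1 was at -0.085 (adjusted p = 0.0682) and -0.20 (adjusted p = 0.000805). FAU, which makes a small subunit protein fused to a ubiquitin-like one, gave 0.0068 and -0.036, not called under TMM. Of 7 tested paralogs 2 rose and 2 fell with shSNHG1#1, and 2 rose and 1 fell with shSNHG1#2. The shares of all features were 24.5% higher and 23.5% lower with shSNHG1#1, and 23.3% higher and 22.8% lower with shSNHG1#2. RPL26L1, a paralog of RPL26, had 13.7 ± 1.07 FPKM in shNC and rose to 18.6 ± 1.56 FPKM in shSNHG1#1 cells and to 18.6 ± 0.327 FPKM in shSNHG1#2 cells (log2 fold changes 0.39 and 0.37). Of the paralogs, RPL26L1 and RPL39L rose with both hairpins, RPL39L with the limit given above. Both are of low level, but RPL22L1 and RPL7L1, at means of 40.1 and 24.7 FPKM, were called with neither hairpin. Their log2 fold changes with shSNHG1#1 were 0.0051 and 0.0019. With totals that leave out the most abundant features 5 paralogs rose and 1 fell with each hairpin. Under those totals 7091 and 6912 of all 18739 features rose, and 2743 and 2469 fell.

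Elongation factors and other messages known to carry the 5′ tract were looked at in the same way. Of 18 such genes 13 fell and 2 rose with shSNHG1#1, and 15 fell and 2 rose with shSNHG1#2, with medians of -0.15 and -0.20 under TMM scaling. The shares of all features that fell were 23.5% and 22.8%, and of the abundant features 46.4% and 53.8%. With totals that leave out the most abundant features 5 fell and 7 rose with shSNHG1#1, with a median of 0.0087, and 8 fell and 3 rose with shSNHG1#2, with a median of -0.044. HNRNPA1, an RNA-binding protein gene of this group, had 579.7 ± 10.5 FPKM in shNC and fell to 431 ± 9.65 FPKM in shSNHG1#1 cells and to 419 ± 10.2 FPKM in shSNHG1#2 cells (log2 fold changes -0.45 and -0.50). EIF4B, a cofactor of the initiation helicase, fell by 0.25 and 0.31. EEF1B2, which reloads elongation factor 1A with GTP, went the other way, from 262 ± 12.3 FPKM to 343 ± 8.57 and 314 ± 5.14 FPKM (log2 fold changes 0.34 and 0.20). Other initiation factor genes were divided, with 6 higher and 8 lower of 28 with shSNHG1#1 and 6 higher and 11 lower with shSNHG1#2, and 18 higher and 4 lower, then 14 higher and 4 lower, under the other totals. The shares of all features that rose were 24.5% and 23.3% under TMM. Under the other totals 7091 and 6912 of 18739 features rose, and 2743 and 2469 fell.

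Genes that control translation of such messages changed in both directions. Of 16 genes of the mTOR pathway and its targets 6 rose and 6 fell with shSNHG1#1, and 5 rose and 7 fell with shSNHG1#2. Over all features 24.5% rose and 23.5% fell with shSNHG1#1, and 23.3% rose and 22.8% fell with shSNHG1#2. With totals that leave out the most abundant features 9 of the 16 rose and 3 fell, then 8 rose and 2 fell. Under those totals 7091 and 6912 of all 18739 features rose, and 2743 and 2469 fell. MTOR was at 4.93, 5.31 and 5.55 FPKM in shNC, 7.71, 8.12 and 8.12 FPKM with shSNHG1#1 and 8.39, 8.68 and 8.08 FPKM with shSNHG1#2. All 6 hairpin libraries lay above the controls (log2 fold changes 0.59 and 0.64, edgeR adjusted p = 9.1e-07 and 6.2e-07). EIF4EBP2, a repressor of cap-dependent initiation, rose by 0.66 and 0.62 on the log2 scale. RPS6KB1, the kinase that phosphorylates RPS6, had 38.6 ± 0.752 FPKM in shNC and fell to 24.4 ± 0.0529 FPKM in shSNHG1#1 cells and to 25.7 ± 0.476 FPKM in shSNHG1#2 cells (log2 fold changes -0.67 and -0.61). Of 13 tested chaperones and assembly partners of ribosomal proteins 4 rose and 1 fell with shSNHG1#1, and 1 rose and 1 fell with shSNHG1#2, while 10 rose with shSNHG1#1 and 8 with shSNHG1#2 under the other totals and 0 fell. These counts stand beside the same values for all features as the mTOR genes. RRS1, which helps to bring RPL5 and RPL11 into the large subunit, rose by 0.69 and 0.46 on the log2 scale.

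The start of the ribosomal protein messages was read from RefSeq promoter windows of assembly GRCh38.p14. Of the 77 genes 61 had an entry. No source used here names the build behind the deposited values, and the RefSeq starts need not be those used in these cells. The windows below show 10 bases before and 20 bases from the annotated start, with the tract in capitals where the first transcribed base is C and at least 5 pyrimidines follow from it without a break. The first group holds genes that fell with at least 1 hairpin under TMM, followed by RPLP0, which rose with shSNHG1#1. Then come 3 genes that carry the tract and were called with neither hairpin under TMM, and 2 without the tract. RPS29 and RPS26 were chosen after their values were seen, and both were called with neither hairpin under TMM. Of the 15 genes with an entry and no tract, 4 fell with shSNHG1#1 and 6 with shSNHG1#2, among them RPS4X with both. None of those is printed, so the windows do not show how the tract goes with the falls.
RPL10 (chrX:154398367-154398396, plus strand): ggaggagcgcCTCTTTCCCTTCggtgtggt
RPL31 (chr2:101002279-101002308, plus strand): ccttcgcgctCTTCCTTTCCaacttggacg
RPL18 (chr19:48619159-48619188, minus strand): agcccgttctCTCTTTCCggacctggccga
RPS9 (chr19:54200848-54200877, plus strand): gcttccgcgcCTCTTTCTCagtgaccgggt
RPS21 (chr20:62387093-62387122, plus strand): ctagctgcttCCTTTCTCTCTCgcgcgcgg
RPSA (chr3:39406710-39406739, plus strand): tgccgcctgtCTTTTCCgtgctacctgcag
RPLP0 (chr12:120201092-120201121, minus strand): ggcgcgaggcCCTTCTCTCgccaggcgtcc
RPL28 (chr19:55385922-55385951, plus strand): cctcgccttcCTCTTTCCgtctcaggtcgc
RPS19 (chr19:41860245-41860274, plus strand): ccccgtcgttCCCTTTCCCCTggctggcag
RPLP1 (chr15:69452808-69452837, plus strand): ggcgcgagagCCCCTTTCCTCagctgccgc
RPS26 (chr12:56041908-56041937, plus strand): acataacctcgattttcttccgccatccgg
RPS29 (chr14:49598691-49598720, minus strand): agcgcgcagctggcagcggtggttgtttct

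The tract was common in these genes. It was found at a RefSeq start of 46 of 61 genes (75.4%), with 28 of 38 in the large and 18 of 23 in the small subunit. Among other tested genes with a mean of at least 100 FPKM it was found in 57 of 369 (15.4%), and over all 27305 genes of the promoter table in 5.14%. RPL10, RPL18 and RPL28 all start with the same 8 bases, CTCTTTCC. That motif, searched on both strands over each whole window, occurred in 11 of the 61 genes (18.03%). It occurred in 4.34% of the 369 other abundant genes, 3.92% of all tested genes with an entry and 3.70% of all genes of the promoter table. The ETS-type motif CCGGAAG was found on either strand in 36.1% of the 61 genes and in 12.2% of all windows, and TATAAA in 6.56% and 14.0%. Of the 46 genes with the tract, 22 fell and 1 rose with shSNHG1#1 and 30 fell with shSNHG1#2, with median log2 fold changes of -0.12 and -0.17. Of the 15 with an entry and no tract, 4 fell with shSNHG1#1 and 6 with shSNHG1#2, with medians of -0.057 and -0.13. The shares that fell were 23.5% and 22.8% of all features, and 46.4% and 53.8% of the abundant ones. These counts are a description, and the difference between the sets was not tested.

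Many ribosomal protein genes carry small nucleolar RNAs in their introns, as SNHG1 does. In the GENCODE 29 annotation 28 of the 77 genes contain at least 1 small nucleolar RNA gene on the same strand. Of these 13 fell with shSNHG1#1 and 20 with shSNHG1#2, with medians of -0.11 and -0.17. The 49 others gave 18 and 26 lower, with medians of -0.11 and -0.16, so the 2 sets had nearly the same medians. Over all features 23.5% fell and 24.5% rose with shSNHG1#1, and 22.8% fell and 23.3% rose with shSNHG1#2. Of the abundant features 46.4% and 53.8% fell. RPL10, which hosts SNORA70, showed the largest fall against shNC with shSNHG1#2, while RPS9 and RPL31, the next in size, host none in that annotation. Among 11 tested noncoding host genes of small nucleolar RNAs 1 rose and 3 fell with shSNHG1#1, and 2 rose and 3 fell with shSNHG1#2. SNHG7 was the one with the smallest p, and fell from 8.82 ± 0.347 FPKM in shNC to 4.33 ± 0.742 FPKM in shSNHG1#1 cells and to 4.94 ± 0.395 FPKM in shSNHG1#2 cells (log2 fold changes -0.92 and -0.76).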

How the data were processed

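RNA was harvested with Trizol and sequenced by a BGI500 protocol, per the labels. The deposited table gives for each feature and library a value headed "exp" in the file, which was read as FPKM from the values, and an estimated count, which the authors' tools shared among transcripts. RSEM 1.2.12, Bowtie2 2.2.5, HISAT2 2.0.4 and DESeq2 1.4.5 are listed, without their roles, per the submitters' processing notes. The genome build, annotation and strand setting were not given in the sources used here. The deposited group means were not used.

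The genes described, the gene lists and the tests were chosen with earlier results of these data known. Estimated counts were rounded and all features were tested with edgeR 4.0.16 in R 4.3.3 (TMM factors, filterByExpr, quasi-likelihood F test, 1 fit of group means over all 9 libraries), with Benjamini-Hochberg adjustment over 18767 features for each of 3 contrasts. The median biological coefficient of variation was 9.65%. Standard errors come from the F statistic, and the fits were tested on simulated data. Alternatives were DESeq2 1.42.0, limma 3.58.1 on log2(FPKM + 1), other scalings, filters and designs, and leaving out each library. The genes to be named were the 5 highest and 3 lowest by level, the 4 highest and 4 lowest called fold changes per subunit and contrast, called genes that went against the majority, genes that differed between the hairpins, and up to 3 genes per list with the smallest p. Only part of these are given, and some genes that enter the counts are not reported here by name or in the plots. RPL5, RPL7A, RPL11, RPL18, RPL22, RPL23A and EEF1B2 fall outside the rule and were picked with their values known, as were others so marked. Motifs were searched as plain letters on both strands of RefSeq windows of 250 bases before and 50 after each start. Whether replicates are separate cultures is not labelled, and p-values thus rest on a spread that may be technical. Replicates of a group differed by more than sampling noise. FPKM values are given as mean ± SD with n = 3.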

Additional observations from a re-analysis of the deposited data

How the results depend on the processing

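With library totals alone, without TMM factors, 19 genes fell with shSNHG1#1 (median log2 fold change -0.061). With shSNHG1#2 the median was -0.097, and 33 genes fell and 2 rose, beside 3426 and 5344 of all 18767 features. By limma on log2(FPKM + 1) 20 fell with shSNHG1#1 (median -0.066) and the median with shSNHG1#2 was -0.10. With shSNHG1#1, 3819 of all 18767 features fell by library totals alone and 3421 of 13577 by limma. With totals without the 2 most abundant features, added after the data were seen, 19 rose and 3 fell with shSNHG1#1 (median 0.047) and 9 rose and 11 fell with shSNHG1#2 (median -0.0070), and the values for shSNHG1#1 turned to 0.0049 for RPL13, 0.041 for RPL13A, 0.047 for RPL19, 0.014 for RPL5, 0.0011 for RPL11 and 0.036 for RPSA, and for shSNHG1#2 to 0.023 for RPL13A, 0.013 for RPL7 and 0.038 for RPS6. Of all 18739 features under those totals, 7091 rose and 2743 fell with shSNHG1#1, and 6912 rose and 2469 fell with shSNHG1#2. Members minus all features, which a change of scaling cannot move, ran from -0.15 to -0.11 with shSNHG1#1 and from -0.22 to -0.14 with shSNHG1#2 when 1 library was left out. Between the hairpins 12 genes fell by DESeq2, 2 in a fit of only those groups and 3 by limma. Of all features 354 of 27294, 110 of 18293 and 107 of 13577 fell in turn. DESeq2 called 44 lower with shSNHG1#1 and 57 with shSNHG1#2, beside 4468 and 4307 of all 27294 features. Leaving out 1 library each, 24 to 48 genes fell and 1 to 3 rose with shSNHG1#1 (medians -0.14 to -0.093), 38 to 60 fell and 1 rose with shSNHG1#2 (medians -0.21 to -0.14), and 1 to 6 fell and 0 rose between the hairpins (medians -0.098 to -0.027). Those fits tested 19128 to 19187 features. Of all features 4084 to 4569 fell and 3922 to 4370 rose with shSNHG1#1. With shSNHG1#2 3837 to 4504 fell and 3726 to 4249 rose, and between the hairpins 57 to 198 fell and 240 to 342 rose. The 48 came without shSNHG1#2 replicate 1, which is in neither group of that contrast, and the 1 that rose came without shSNHG1#1 replicate 3. Of 33 calls with shSNHG1#1 23 held in all 9 fits, and of 47 with shSNHG1#2 38 held. The ratio of large to small was 0.832, 0.835 and 0.825 in shNC, shSNHG1#1 and shSNHG1#2 from geometric means, 1.513, 1.517 and 1.501 from estimated counts, and 1.413, 1.417 and 1.3998 without the gene of varying implied length. Without 1 library it was 1.443 to 1.446, 1.444 to 1.455 and 1.429 to 1.434. The cause of these shifts was not tested. Deviations of same-numbered replicates had correlations of -0.065 to 0.037 over all features. Over the ribosomal protein genes these correlations ran from -0.14 to 0.53, and those of replicates with other numbers from -0.63 to 0.59. Whether the numbers pair the samples cannot be decided from these values, since the ranges overlap. With a replicate block 39, 54 and 6 genes fell in the 3 contrasts, beside 4309, 4190 and 137 of all 18767 features. Values without shSNHG1#2 replicate 1, the highest of its group in these genes, are in these ranges. Depth limits little here, except for genes near 10 FPKM.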

Other observations

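Some ribosomal protein values invite a look at how reads were assigned. Count divided by FPKM and library total gives the transcript length behind each value, with a median of 645 bases over the 77 genes. RPL13 stood out, at 2605 to 2830 bases over the libraries, and was the only gene above 2000. Its level of 24.4, 26.6 and 24.7 FPKM in shNC was far below the median of 534 for the large subunit. RPL15 was the only gene whose implied length differed by more than 1.1-fold between libraries, from 975 to 1089 bases. Its mean was 645 ± 13.1 FPKM in shNC, 601 ± 13.0 with shSNHG1#1 and 587 ± 13.3 with shSNHG1#2, and it was not called under TMM. The processed copy RPL13AP5 ranged from 0.07 FPKM in shNC replicate 3 to 78.2 FPKM in shNC replicate 1, and was at 0.110, 6.55 and 1.84 FPKM with shSNHG1#1 and 31.7, 23.4 and 2.35 FPKM with shSNHG1#2. Values of RPL13A in the same libraries are 1692, 1648 and 1671, 1633, 1546 and 1636 and 1659.9, 1577 and 1564 FPKM, with no such spread. RPL15, RPL13AP5 and the lengths were chosen after their values were seen, and what sets them was not tested.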
